A study of Mus musculus with 8 samples.

Results

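Cycling tumour cells were 1748 of the 3277 tumour cells found in 6 GL261 tumour-bearing libraries, and 1748 of the 5733 cells kept in all 8 libraries of the series. GL261 is a mouse glioma cell line that grows as an immunocompetent brain tumour model in C57BL/6 mice. Cells were measured by Drop-seq, in which single cells are enclosed in droplets with barcoded beads and the 3′ ends of messenger RNAs are counted by unique molecular identifiers (UMIs). In each library the 1000 barcodes with most UMIs were taken, and those with at least 1000 detected genes were kept. In the rule, gene sums are UMIs per 10000 UMIs of the same cell. Levels given below for a library and class, or for a bin of cells, pool the UMIs of all those cells. They are per 10000 of the pooled UMIs, so deeper cells weigh more. A tumour cell had a sum of at least 10 over Col9a1, Col3a1, Lect1, Rhox5, Car6 and Syt4, with at least 3 of these 6 genes detected, and a sum of at most 20 over the myeloid genes Tyrobp, Fcer1g and Ctss. It was called cycling where Top2a, Mki67, Cenpf, Ube2c, Ccnb1, Hmmr, Tpx2 and Birc5 together reached 15. The comparison cells were the 967 tumour cells in which these 8 genes summed to less than 5, called non-cycling here, and 562 tumour cells lay between. The naïve libraries held 0 tumour cells among 926 kept cells.

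The hosts were WT mice (Irg1/Acod1 +/+) and KO mice (Irg1/Acod1 -/-), whose Irg1/Acod1 allele is interrupted by a cassette that lies after exon 3 and before exon 5. The labels give the strain as C57BL/6 and the study's methods as C57BL/6N, and the labels give no age. Every tumour-bearing host had received 500 GL261 cells in the brain, and the tumour core was collected at an early (5 to 10 mm3), intermediate (20 to 25 mm3) or late (30 to 35 mm3) volume measured by magnetic resonance imaging. There was 1 library of 1 mouse for each genotype and stage, so a stage and genotype had no replicate of its own. By the study's methods, the early WT and intermediate KO hosts were female and the others male, so genotype and sex cannot be told apart at those stages. The implanted cells came from the same line in both hosts and do not carry the host's allele. Acod1, the targeted gene, gave 0 to 17 UMIs per library in cycling tumour cells (0 in KO intermediate, which allows up to 3), so these cells do not check the host labels. Values for 6 libraries are given below in the order WT early, KO early, WT intermediate, KO intermediate, WT late and KO late.

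Cycling cells held between 1929033 and 4658115 UMIs per library, and their median depth was 6677, 3579, 6384, 5365, 3936 and 4103 UMIs per cell. The non-cycling cells had medians of 6862, 4576, 5226, 3844, 5367 and 5186 UMIs. The log2 ratio of the medians (cycling over non-cycling) averaged -0.068 ± 0.38 (SD, n = 6) and was above 0 in 2 of 6 libraries (exact sign-flip permutation test over libraries, two-sided, p = 0.625). On means in place of medians the log2 ratio was 0.44 (exact permutation p = 0.031, the smallest that 6 libraries allow). The share of mitochondrial transcripts was 0.62 ± 0.75 percentage points lower in cycling cells (mean difference -0.62, n = 6, exact permutation p = 0.125), and on means in place of medians the difference was 0.0054 points. The share of ribosomal protein transcripts differed by 0.11 ± 0.53 points (exact permutation p = 0.594, n = 6). Among cells thinned to 2000 UMIs, cycling cells showed 42.3 ± 10.1 more detected genes than non-cycling cells (n = 6), with more in 6 of 6 libraries (26.0 to 55.5, exact permutation p = 0.031). Among the kept cells 2 barcodes were found in more than 1 library, 1 of them in 7 libraries, and they belonged to 7 cycling cells.

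Cells that divide pass through a phase of DNA synthesis, which needs the replication licensing factors, polymerases and deoxynucleotides, and then through mitosis, in which kinases, condensins, kinetochores and the spindle separate the chromosomes. E2F factors drive many genes of DNA synthesis. The DREAM and MuvB complexes, with B-MYB and FOXM1, control many genes of G2 and mitosis through a promoter element known as CHR. Many of these promoters also hold a second element, CCAAT. Gliomas hold dividing cells beside tumour cells at rest, and the genes Mki67 and Top2a are long-used histological marks of the former. The 8 genes used here for choosing cells belong mostly to G2 and mitosis.

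Promoters of 5 mitotic genes are shown because they let the 2 elements be seen in the genes with the largest difference between cycling and non-cycling cells. They are the 5 largest differences in the mitotic lists (log2 fold changes of 5.17 to 6.43) among genes with a promoter in the RefSeq table that holds a CHR match, so their carrying it is not a finding. Each line runs 5′ to 3′ on the gene's strand from 250 bases before to 50 bases after the start that RefSeq gives on GRCm38.p6. Capitals mark CHR (TTTGAA or TTCGAA, on both strands) and CCAAT (both strands). The starts that RefSeq gives for Kif14 and Kif2c lie inside the gene as the GRCm38 annotation bounds it. No match of one motif overlapped a match of the other in these 5 windows.
Kif14: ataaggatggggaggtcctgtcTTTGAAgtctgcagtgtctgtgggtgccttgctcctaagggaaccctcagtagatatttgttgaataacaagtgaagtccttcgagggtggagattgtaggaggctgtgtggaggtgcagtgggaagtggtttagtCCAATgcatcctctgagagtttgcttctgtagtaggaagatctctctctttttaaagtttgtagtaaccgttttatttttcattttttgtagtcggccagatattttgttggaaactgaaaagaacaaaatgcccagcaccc
Plk1: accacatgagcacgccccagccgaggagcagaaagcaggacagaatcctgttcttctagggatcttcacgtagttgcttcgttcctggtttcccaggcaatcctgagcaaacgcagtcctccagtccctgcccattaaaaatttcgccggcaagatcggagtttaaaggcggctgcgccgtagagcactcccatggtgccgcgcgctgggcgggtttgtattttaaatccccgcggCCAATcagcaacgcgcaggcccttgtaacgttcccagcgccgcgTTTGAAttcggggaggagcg
Kif11: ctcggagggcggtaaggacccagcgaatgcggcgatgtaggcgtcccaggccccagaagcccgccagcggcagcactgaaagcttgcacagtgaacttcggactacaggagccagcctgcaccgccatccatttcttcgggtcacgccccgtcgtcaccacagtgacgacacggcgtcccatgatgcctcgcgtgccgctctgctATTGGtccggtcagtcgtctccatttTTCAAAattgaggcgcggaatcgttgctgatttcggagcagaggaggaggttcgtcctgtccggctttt
Kif2c: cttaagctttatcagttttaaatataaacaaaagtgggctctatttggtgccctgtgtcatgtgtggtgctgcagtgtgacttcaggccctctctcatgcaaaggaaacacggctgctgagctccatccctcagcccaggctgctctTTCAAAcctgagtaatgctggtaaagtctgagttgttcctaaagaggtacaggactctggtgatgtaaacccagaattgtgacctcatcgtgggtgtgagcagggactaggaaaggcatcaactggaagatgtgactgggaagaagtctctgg
Aspm: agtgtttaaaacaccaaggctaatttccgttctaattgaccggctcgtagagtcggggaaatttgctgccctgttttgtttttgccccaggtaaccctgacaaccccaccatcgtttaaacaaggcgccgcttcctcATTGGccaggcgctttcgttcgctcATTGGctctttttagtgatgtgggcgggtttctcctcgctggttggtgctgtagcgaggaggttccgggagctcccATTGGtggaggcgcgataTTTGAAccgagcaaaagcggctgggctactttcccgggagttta
Kif14 (chr1:136467598-136467897, plus strand), a kinesin of cytokinesis, held CHR 228 bases before its start and CCAAT 92 bases before it. Plk1 (chr7:122159185-122159484, plus strand), the polo-like kinase of mitotic entry, held CCAAT at -14 and CHR at 30 from its start. Kif11 (chr19:37376132-37376431, plus strand), the motor that separates spindle poles, held CCAAT at -45 and CHR at -19. Kif2c (chr4:117178723-117179022, minus strand), a kinesin that shortens microtubules, held CHR at -103 and no CCAAT, and Aspm (chr1:139454523-139454822, plus strand), a spindle pole protein, held CHR at 6 and 3 CCAAT matches. Of 88 RefSeq promoters of the mitotic lists below (80 of 98 genes matched), 54 (61.4%) held CHR and 62 (70.5%) CCAAT. Among all 32851 mouse promoters of this length the shares were 19.2% and 37.4%. In the 56 promoters of the replication and nucleotide lists (50 of 61 genes matched), 8 (14.3%) held CHR and 32 (57.1%) CCAAT. Both motifs stood together in 47.7% of mitotic promoters, 8.93% of replication and nucleotide promoters and 7.53% of all. A match describes letters in the window and is not a measured binding site.

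Genes that chose the cells are given as a description only. Top2a, the topoisomerase that untangles chromosomes, was at 15.01 to 21.40 UMIs per 10000 in cycling cells and at 0.712 to 1.18 in non-cycling cells. Mki67 lay between 4.46 and 8.69 against at most 0.130, and Hmmr between 5.30 and 7.73 against at most 0.0942. The summed level of the 8 genes, pooled over cells, was 44.0 to 61.3 in cycling and 1.504 to 2.193 in non-cycling cells. Around the threshold the cells formed no gap. The highest sum outside was 14.96 and the lowest inside 15.04, with 229 tumour cells from 10 to 15 and 180 from 15 to 20. At the ends, 481 tumour cells had none of the 8 genes detected and 601 cells summed to 60 or more (highest 161). Taken per cell, the median sum within cycling cells was 57.4, 32.8, 53.8, 59.7, 48.3 and 39.4, lowest in KO early. The 17 genes of the rule were removed before library sizes and tests, and the rule's tumour genes Lect1 (12.2 to 21.5 in cycling, 25.2 to 36.3 in non-cycling) and Car6 (3.25 to 9.40 and 1.94 to 8.65) are likewise described without a test.

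The label was checked on 10 cell cycle genes that the rule did not use. Cdk1, Ccnb2, Ccna2, Plk1, Aurka, Aurkb, Cdc20, Nusap1, Bub1 and Kif11 were all higher in cycling cells in 6 of 6 libraries, with no overlap between the classes. Like most of the choosing genes, these genes act around mitosis. Their separation therefore follows largely from the choice of cells and is not an independent check of the label. The share of all tested genes that separated in the same way is not given here. Cdk1, the kinase that starts mitosis, stood at 4.83, 5.96, 5.59, 5.77, 5.68 and 4.90 UMIs per 10000 in cycling cells. In non-cycling cells it stood at 0.677, 1.06, 0.679, 0.508, 1.01 and 0.898, a log2 fold change of 2.82 ± 0.11 (SE, edgeR adjusted p = 3.41e-12). As tumour genes outside the rule, the cartilage collagens Col11a1 (5.90 to 13.1), Col9a2 (3.49 to 8.85) and Col9a3 (2.53 to 6.01) and the intermediate filament gene Vim (21.1 to 36.3) were present in cycling cells of every library.

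To ask how cycling tumour cells differed from tumour cells with few transcripts of the choosing genes, UMIs were summed per library and class, and the 12 sums were tested with the library as a block. Of 11512 genes tested, 1983 (17.2%) were higher and 2087 (18.1%) were lower in cycling cells at an edgeR adjusted p under 0.05. The cells were chosen by 8 co-expressed genes, so these counts describe what goes with that sum and are not independent of the choice. The median log2 fold change over all genes tested was -0.03. The counts per list are read against those shares, and the gene lists were drawn up with results of these data known. Enzymes and structures of mitosis and DNA replication were higher almost throughout, whereas most of the matrix, immediate early and lysosome genes tested were lower. Of the MHC class I and interferon genes 21 of 37 were lower. With the tenth of cells highest in other cell types' markers left out of each library, 20 of 37 were lower. With every cell above a sum of 20 over these markers left out, only WT intermediate and WT late remained. In that fit 0 of 37 were lower and 2 higher, and 9 of 21 matrix, 11 of 21 immediate early and 10 of 23 lysosome genes were lower. The cells left out and the libraries lost cannot be told apart in it. In a further fit cells were thinned to 2000 UMIs and shallower cells left out (1508 cycling and 873 non-cycling cells remained). The counts over all genes were then 786 higher and 894 lower of 6259 tested. Of these, 766 and 799 were among the 1983 and 2087 above.

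**Figure D1:**
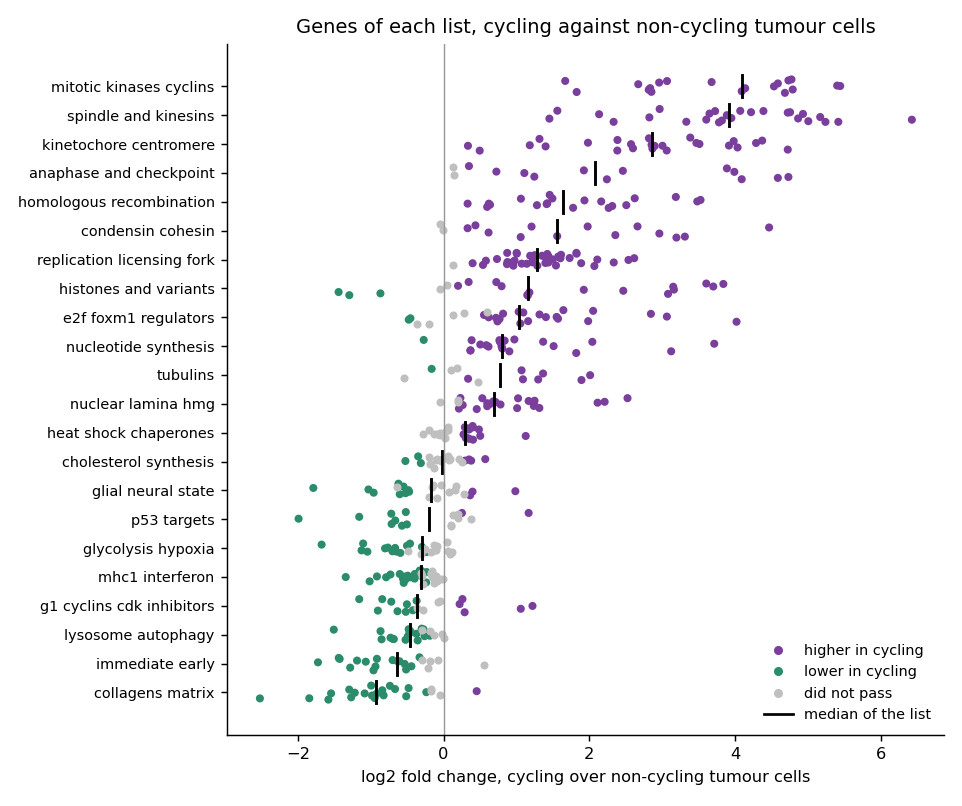
Each point is 1 gene, placed by its log2 fold change (cycling over non-cycling tumour cells, edgeR over 6 libraries) on the horizontal axis and by its list on the vertical axis. Purple and green mark genes past an adjusted p of 0.05 and the black bar is the median of the list, which runs from 4.09 for mitotic kinases and cyclins to -0.92 for collagens and matrix.

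Mitotic kinases and cyclins had the highest median of the lists in this fit. All 19 genes of this list were higher, with a median log2 fold change of 4.09, and their summed level was 24.0 to 27.6 UMIs per 10000 in cycling cells against 2.31 to 4.60 in non-cycling cells. Plk1 was at 1.07, 1.18, 1.25, 1.33, 1.43 and 1.02 in cycling cells and at 0.0178, 0.0467, 0.0237, 0.0212, 0.0419 and 0.0217 in non-cycling cells. These values did not overlap, and the log2 fold change was 5.44 ± 0.16 (SE, edgeR adjusted p = 2.36e-13). Aurkb, the kinase of the chromosomal passenger complex, rose by 5.40 on the log2 scale, Bub1, a checkpoint kinase, by 4.73, and Cks1b, a small subunit that binds Cdk1, by 1.67, the smallest of the list.

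Spindle genes and kinesins were higher in 26 of 26 cases (median 3.92), and kinetochore and centromere genes in 25 of 25 (median 2.87). Kif14 was counted 736 times in cycling cells and 3 times in non-cycling cells, a ratio of 96.9 at equal depth with a counting interval of 33.0 to 471 (exact binomial, 95%). Cenpe, the kinesin that moves chromosomes to the spindle equator, is in both lists. It stood at 5.46, 3.15, 5.53, 6.38, 5.10 and 3.94 UMIs per 10000 in cycling cells and at 0.143, 0.140, 0.180, 0.191, 0.220 and 0.260 in non-cycling cells. The KO early and KO late libraries were the lowest in cycling cells, and every cycling value lay above every non-cycling value (log2 fold change 4.72 ± 0.12 SE, edgeR adjusted p = 5.67e-14). Prc1, which bundles the midzone microtubules, rose by 2.83 and Cenpa, the centromeric histone H3 variant, by 3.06. Hjurp, the chaperone that loads Cenpa, rose by 1.18, from 0.838 to 1.46 in non-cycling cells to 1.98 to 3.04 in cycling cells. Ndc80, the kinetochore's microtubule coupler, rose by 4.37 and Anln, a scaffold of the cleavage furrow, by 2.33.

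Of 14 anaphase and checkpoint genes 12 were higher (median 2.08), and Anapc13 (0.13, edgeR adjusted p = 0.210) and Cdc26 (0.14, adjusted p = 0.160), core subunits of the anaphase-promoting complex, did not pass. Cdc20, its mitotic activator, rose by 3.99 and Pttg1, the securin, by 2.24. Of 15 condensin and cohesin genes 13 were higher (median 1.56). Smc2, a condensin core subunit, was at 5.85, 5.67, 7.49, 8.34, 6.46 and 7.93 UMIs per 10000 in cycling cells and at 1.09, 1.28, 1.31, 1.58, 1.08 and 1.94 in non-cycling cells, without overlap (log2 fold change 2.36 ± 0.07 SE, edgeR adjusted p = 3.34e-13). Smc4, its partner, rose by 1.98, and Rad21, the cohesin subunit cut at anaphase, by 1.21. Esco2, the S phase cohesin acetyltransferase, rose by 4.47, whereas Stag2 (-0.004) and Nipbl (-0.05), a cohesin subunit and the cohesin loader, did not pass.

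Replication licensing and fork genes rose in 40 of 41 cases, with a smaller median log2 fold change of 1.29, and Gins3 (0.13, edgeR adjusted p = 0.527) did not pass. Pcna, the sliding clamp, stood at 2.73, 2.00, 2.10, 2.43, 2.63 and 2.72 UMIs per 10000 in cycling cells against 1.28, 0.945, 0.925, 1.03, 1.04 and 1.09. The 6 cycling values lay above the 6 non-cycling values (1.22 ± 0.07 SE, edgeR adjusted p = 3.55e-10). Mcm2 and Mcm5, subunits of the replicative helicase, rose by 0.96 and 1.54, and Clspn, a fork protein of the replication checkpoint, by 2.62, the largest of the list. In nucleotide synthesis 19 of 20 genes were higher (median 0.80). Rrm2, the regulated subunit of ribonucleotide reductase, rose by 3.71, Tk1, thymidine kinase, by 3.12 and Tyms, thymidylate synthase, by 2.04. Paics, an enzyme of purine synthesis, fell by 0.27 (edgeR adjusted p = 9.79e-04), from 5.49 to 9.45 in non-cycling cells to 4.55 to 7.66 in cycling cells. It overlaps Ppat, which encodes another purine enzyme on the opposite strand and rose by 0.39.

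**Figure D2:**
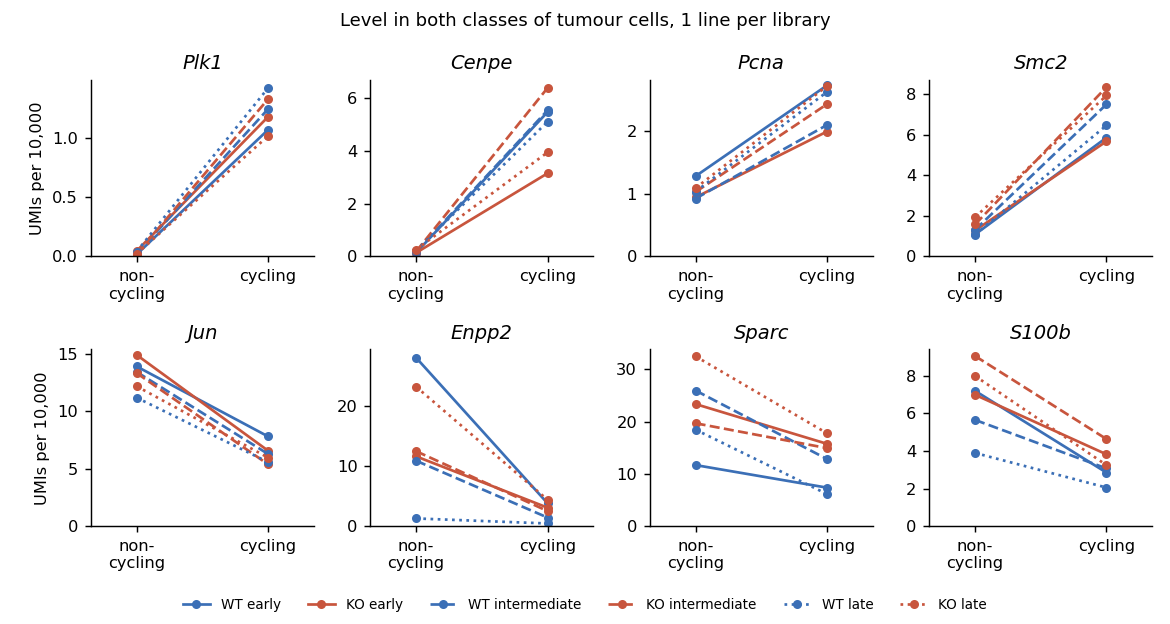
Each panel shows the level of 1 gene in UMIs per 10000 (vertical axis) in non-cycling and cycling tumour cells, with 1 line per library, blue for WT and red for KO. Plk1, Cenpe, Pcna and Smc2 rose in 6 of 6 libraries, and Jun, Enpp2, Sparc and S100b fell in 6 of 6.

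Along the choosing sum, replication and mitotic genes followed different courses. The choosing genes act mostly around mitosis, so the rise of other mitotic genes along their sum follows largely from the binning. In the WT early library the summed level of 82 mitotic genes not used for choosing was 14.2 in tumour cells without any choosing gene, 71.9 at a choosing sum of 15 to 30 and 164 at 60 and over. In KO late these values were 23.8, 80.2 and 172. The summed level of 49 genes of replication and deoxynucleotide supply rose from 14.4 to 55.2 at 15 to 30 in WT early and then stood at 52.8 and, at 60 and over, at 41.7. It was lower at 60 and over than at 15 to 30 in 6 of 6 libraries (41.2 to 51.8 against 55.2 to 71.8). Of the cycling cells, 199 (11.4%) had a higher replication sum than mitotic sum, from 8.77% in WT late to 16.1% in WT early. The sums were not scaled for their numbers of genes (49 and 82), and the cells were chosen by mostly mitotic genes. This share therefore does not measure how many cells were in DNA synthesis. In the band from 5 to 15 just outside, the replication sum was already 41.4 to 57.1.

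**Figure D3:**
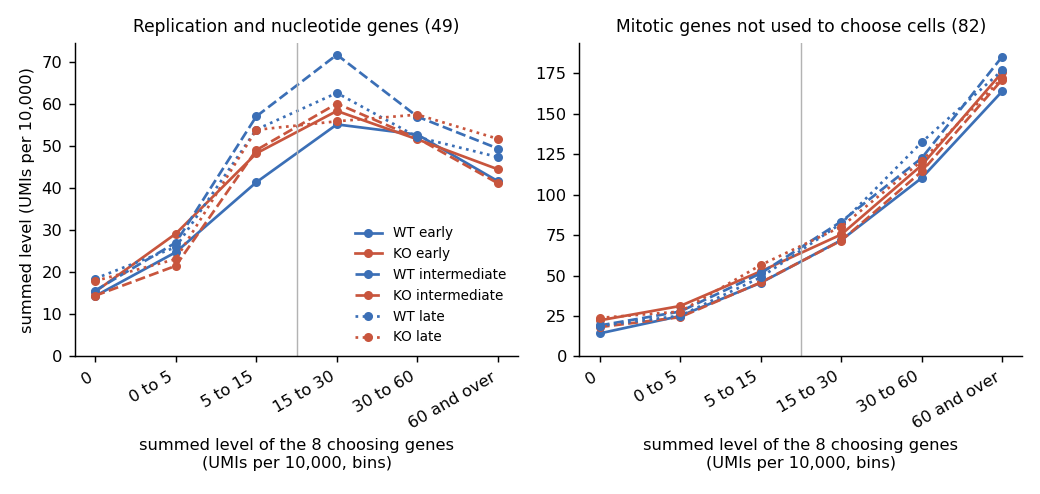
The horizontal axis bins tumour cells by the summed level of the 8 choosing genes and the vertical axis gives the summed level of 49 replication and nucleotide genes (left) and 82 mitotic genes (right), in UMIs per 10000, 1 line per library. The grey line marks the threshold of 15. Replication sums fall to 41.2 to 51.8 in the last bin, whereas mitotic sums rise to 164 to 185. The mitotic rise follows largely from binning by choosing genes that are mostly mitotic.

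Regulators of the cycle were mixed. Of 27 E2F and FoxM1 targets and regulators 20 were higher and 2 lower (median 1.03). Foxm1, the transcription factor of G2 genes, rose by 4.02, Ezh2, the Polycomb methyltransferase, by 1.16, Atad2, a bromodomain protein, by 1.55 and Dnmt1, the maintenance DNA methyltransferase, by 1.05. Rbl2, the pocket protein p130 of resting cells, and Tfdp2, a partner of E2F factors, fell by 0.48 and 0.45 (edgeR adjusted p = 0.0483 and 0.00309; the former was lost without any 1 library other than KO late, at 0.0636 to 0.159), and Lin37, Rb1, E2f2, E2f5 and E2f6 did not pass. Among 18 genes of G1 cyclins and CDK inhibitors 5 were higher and 9 lower (median -0.37). Ccnd1, cyclin D1, was at 8.89, 13.4, 9.12, 15.2, 10.0 and 16.3 in cycling cells and at 7.29, 11.0, 9.27, 10.2, 11.1 and 13.2 in non-cycling cells. It was higher in cycling cells in 4 of 6 libraries and lower in WT intermediate and WT late (0.22 ± 0.07 SE, edgeR adjusted p = 0.0238), and the call was lost without WT early or any 1 of the KO libraries (0.0586 to 0.171). Cdk4 and Ccnd3, its kinase partner and a second D cyclin, rose by 0.29 and 0.26. The INK4 inhibitors Cdkn2d (1.22) and Cdkn2c (1.06) rose, whereas Cdkn1b, the inhibitor p27, fell by 0.42 and Ccnd2, another D cyclin, by 0.50.

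Of 16 p53 target genes, Trp53 included, 8 were lower and 2 higher (median -0.20). Cdkn1a, the inhibitor p21, fell by 0.52 but stood above its non-cycling level in WT early (1.29 against 1.18) and KO early (2.10 against 2.05). Trp53inp1, a p53-induced gene, fell by 1.99 without overlap, from 0.125 to 0.314 down to 0.0272 to 0.0846 UMIs per 10000. Aen, a p53-induced nuclease, and Trp53 rose by 1.17 and 0.25, and the call of Trp53 was lost without any WT library or KO late (edgeR adjusted p of 0.0545 to 0.162). Genes of homologous recombination were higher in 20 of 20 cases (median 1.64), among them Brca1 (2.16), Rpa2, a single-strand binding protein (1.42), Rad50 (0.62) and Nbn (0.33), parts of the complex that senses breaks.

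Chromatin and nuclear structure genes were higher with few exceptions. Of 20 histone genes 15 were higher and 3 lower (median 1.15). The linker histone Hist1h1b, a replication-dependent gene, rose by 3.84 and H2afv, an H2A.Z variant, by 0.72, whereas Hist1h1c, Hist1h2bc and Hist3h2a fell by 0.87, 1.29 and 1.44, the call of Hist1h1c being lost without WT intermediate (edgeR adjusted p = 0.0915). Histone genes share sequence within their families and their counts may be split by the counting. Of 24 lamina and HMG genes 21 were higher (median 0.70), led by Hmgb2, a chromatin-bending protein (2.52), with Lmnb1, lamin B1, at 2.11, Ran, the GTPase of nuclear transport, at 0.65, and Anp32b at 0.53. Of 12 tubulin genes 7 were higher and 1 lower. Tuba1b (1.30), Tubb5 (1.37) and Tubb6 (2.01) rose, and Tuba1a fell by 0.16 (edgeR adjusted p = 0.0454), a call lost without WT early, WT intermediate or KO intermediate (0.0946 to 0.147). Of 23 chaperone genes 13 were higher and 0 lower (median 0.29), and most of these were mitochondrial or cytosolic chaperonins, such as Hspd1 (0.49) and Tcp1 (0.50). Dnajc9, a co-chaperone that binds histones, led with 1.13, whereas the most abundant members Hsp90ab1 (0.06), Hsp90b1 (0.02) and Hspa5 (-0.05) did not pass. In cholesterol synthesis 4 of 19 genes were higher and 3 lower.

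By the rule on size, the 10 largest increases were Gm15697, Mxd3, Kif14, Pif1, Hist1h2an, Gm5596, Plk1, Kif11, Aurkb and Kif2c. Gm15697, annotated as an unprocessed pseudogene (chromosome 6 of GRCm38, 38542303 to 38546074, minus strand), was counted 272 times in cycling cells and 0 times in non-cycling cells. Against 3 counts over the non-cycling group it was at least 35.8-fold higher, and the lower exact 95% limit of the ratio, which takes in the counting error of both classes, was 28.9. Mxd3, a MAX partner and repressor, had 315 UMIs against 1 (ratio 125, interval 22.2 to 4931), and Pif1, a DNA helicase, had 241 against 1 (95.2, 16.9 to 3777). Hist1h2an, a histone H2A gene of a multigene family, had 228 against 1 (90.1, 16.0 to 3574), and Gm5596, a processed pseudogene, had 934 against 8. All 10 genes reached 200 UMIs through the cycling cells alone. The rank of Gm15697, Mxd3, Pif1 and Hist1h2an rests on 0 or 1 UMI in the other class. Reads of pseudogenes may come from their parent genes, which the counting cannot settle here.

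The 10 largest decreases were Bgn, Enpp2, Fgfr3, Synpr, Gbp11, Cd59a, Iapp, Arhgap24, Trp53inp1 and BC023105, with log2 fold changes of -2.52 to -1.95. Gbp11 and BC023105 are annotated as pseudogenes, polymorphic and processed. Bgn, the matrix proteoglycan biglycan (X chromosome of GRCm38, 73483602 to 73495933), was at 0.0259, 0.104, 0.120, 0.0505, 0.0129 and 0.0398 in cycling cells. In non-cycling cells it was at 0.0891, 0.490, 0.569, 0.148, 0.513 and 0.173, higher in each library although the ranges overlap between libraries (-2.52 ± 0.30 SE, edgeR adjusted p = 5.56e-06). Enpp2, the secreted enzyme autotaxin that makes lysophosphatidic acid, was at 3.84, 3.10, 1.45, 2.54, 0.455 and 4.42 in cycling cells and at 28.1, 11.7, 10.9, 12.5, 1.30 and 23.3 in non-cycling cells. WT late was the lowest of both classes, and the log2 fold change was -2.37 ± 0.13 (SE, edgeR adjusted p = 2.34e-10). Enpp2 is also abundant in choroid plexus and oligodendrocytes, and it was among the choroid plexus markers by which cells were left out below. With the tenth of cells highest in other markers left out its log2 fold change was -1.25, and with all cells above 20 UMIs per 10000 of them left out it was -0.10 (edgeR adjusted p = 0.933).

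Markers of other brain cells moved with the class. The 8 oligodendrocyte markers summed to 9.67 to 21.3 UMIs per 10000 in cycling and 23.02 to 34.22 in non-cycling cells, and 7 of them were lower. Mbp, a myelin protein, fell by 1.19 on the log2 scale. The sums of 5 oligodendrocyte precursor markers (0.626 to 1.69 against 2.05 to 4.09) and of 7 astrocyte markers (1.36 to 2.83 against 2.70 to 4.28) were also lower in cycling cells in 6 of 6 libraries. Of 4 precursor markers tested 3 were lower, while Pdgfra (0.99) and Olig2 (0.36), placed in another list, rose. Of 6 astrocyte markers tested 3 were lower and 1, Gja1, was higher (0.69). The call of Gja1 was lost without WT intermediate, KO intermediate or KO late (edgeR adjusted p of 0.0704 to 0.0846). The sum of 7 choroid plexus and ependymal markers was 0.825 to 5.63 against 1.74 to 32.5, and it was mostly Enpp2. Without Enpp2 the other 6 markers were lower in cycling cells in 4 of 6 libraries, and their sum in non-cycling cells was 21.6 in WT intermediate, mostly Ttr, and at most 0.963 elsewhere. Sums of myeloid (1.18 to 13.5 against 1.12 to 17.5), lymphocyte (0.0107 to 2.64 against 0.00474 to 1.14), endothelial (1.01 to 5.80 against 2.41 to 9.12), mural and fibroblast (0.0494 to 0.490 against 0.107 to 3.81) and neuron markers (0.0985 to 0.239 against 0.125 to 0.541) were higher in cycling cells in 2 of 6 libraries each. Single myeloid markers were mixed: of 10 tested 2 were higher and 1 lower, and 7 had a log2 fold change above 0 (median 0.42). None of the 72 markers was at 0 in all 12 sums. Between 46.6% and 83.3% of cycling cells and 61.2% and 94.6% of non-cycling cells per library had more than 20 UMIs per 10000 from these markers. Whether GL261 cells themselves express these genes, or the transcripts come from free RNA or from cells captured together, was not tested. With the tenth of tumour cells highest in these markers left out of each library, an alternative chosen after seeing the data, 1579 genes were higher and 1614 lower, of which 1540 and 1545 were among those above. The immediate early and lysosome lists then had 15 of 21 and 15 of 22 genes lower, and 5 of 7 oligodendrocyte markers tested were still lower. With every cell above 20 left out, which kept WT intermediate and WT late only, 605 genes were higher and 423 lower, among them 9 of 21 matrix, 11 of 21 immediate early and 10 of 23 lysosome genes tested. In that setting the log2 fold changes of Ccnd1 (-0.32), Tuba1a (0.19), Hist1h1c (0.37) and Sept4 (0.96) had the opposite sign to those given for all 6 libraries.

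Extracellular matrix genes were lower in 19 of 23 cases, with a median log2 fold change of -0.92, and 1 was higher. Sparc, a collagen-binding matricellular protein, stood at 7.38, 15.8, 12.9, 14.9, 6.15 and 17.8 in cycling cells and at 11.7, 23.4, 26.0, 19.7, 18.5 and 32.5 in non-cycling cells. It fell in each library, most in WT late (-0.84 ± 0.10 SE, edgeR adjusted p = 6.54e-06). Timp2, a metalloproteinase inhibitor, fell by 1.58, Col2a1, the main cartilage collagen, by 1.54, Col9a2 by 0.92 and Mgp, matrix Gla protein, by 0.74. Lgals1, galectin-1, was the exception and rose by 0.46. Glial and neural state genes were lower in 9 and higher in 3 of 22 cases (median -0.18). S100b, a calcium-binding protein of glia, fell by 1.03 and Olig1, an oligodendrocyte lineage factor, by 0.48, whereas Olig2 (0.36), Cd44, the hyaluronan receptor (0.40), and Pdgfra, the PDGF receptor of glial precursors (0.99), rose. Vim (-0.16, edgeR adjusted p = 0.184) and Sox2 (-0.09, adjusted p = 0.413) did not pass.

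Immediate early genes, which respond within minutes to growth signals and also to tissue dissociation, were lower in 16 and higher in 0 of 21 cases (median -0.64). Jun, a subunit of the AP-1 factor, was at 7.82, 6.57, 6.29, 5.39, 5.58 and 5.97 in cycling cells and at 13.9, 14.9, 13.4, 13.3, 11.2 and 12.2 in non-cycling cells. The classes did not overlap (-1.07 ± 0.06 SE, edgeR adjusted p = 2.61e-10). Dusp1, a phosphatase of MAP kinases, fell by 1.72, Klf2 by 1.28, Fos by 0.96 and Egr1 by 0.53. Lysosome and autophagy genes were lower in 18 and higher in 0 of 23 cases (median -0.46), with summed levels of 33.9 to 41.4 in cycling and 43.5 to 51.2 in non-cycling cells. Sqstm1, the autophagy receptor p62, fell by 0.70, Map1lc3b, an autophagosome protein, by 0.86, Laptm4a by 0.68 and the cathepsin Ctsl by 0.49. Genes of glycolysis and hypoxia were lower in 14 and higher in 0 of 29 cases (median -0.30). The summed level of the list was lower in cycling cells in 5 of 6 libraries and higher in WT early (37.2 against 30.6). Bnip3, a mitophagy receptor, fell by 1.04, Vegfa, the angiogenic factor, by 0.76 and Aldoa, a glycolytic enzyme, by 0.46, whereas Ldha (-0.14, edgeR adjusted p = 0.106) and Mif (0.08, adjusted p = 0.325) did not pass.

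Genes of MHC class I and the interferon response were lower in cycling cells in 21 and higher in 0 of 37 cases (median -0.30). H2-K1, a class I heavy chain, was at 25.4, 25.5, 9.08, 25.8, 6.395 and 37.7 in cycling cells and at 38.7, 35.0, 12.8, 41.2, 7.92 and 51.2 in non-cycling cells. It fell in 6 of 6 libraries (-0.49 ± 0.05 SE, edgeR adjusted p = 5.58e-07). B2m, the shared light chain, fell by 0.39, H2-D1 by 0.51, H2-T23 by 0.73, and Ifit3, an antiviral gene induced by interferon, by 1.34. The summed level of the 37 genes fell in each library, from 306, 340, 143, 327, 101 and 377 to 222, 259, 122, 221, 84.1 and 274. With the tenth of cells highest in other cell types' markers left out of each library, 20 of these 37 genes were lower and 0 higher (median -0.28). With every cell above 20 UMIs per 10000 of these markers left out, 0 of the 37 genes were lower and 2 higher (median -0.05). That setting kept WT intermediate and WT late only, so the cells left out and the libraries lost cannot be told apart.

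The share of tumour cells that cycled was 58.9% (149 of 253, exact 95% interval 52.6 to 65.0) in WT early and 53.6% (269 of 502, 49.1 to 58.0) in KO early. At the intermediate stage it was 50.4% (468 of 928, 47.2 to 53.7) in WT and 48.5% (263 of 542, 44.2 to 52.8) in KO. At the late stage it was 60.5% (342 of 565, 56.4 to 64.6) in WT and 52.8% (257 of 487, 48.2 to 57.3) in KO. The intervals cover counting error only. Each WT value was above the KO value of its stage, and the means were 56.6% ± 5.42 (SD, n = 3) in WT and 51.6% ± 2.72 (n = 3) in KO. For the difference of -4.99 points an exact permutation test over libraries gave p = 0.3 (two-sided). The test did not pair the libraries by stage. Its smallest possible p is 0.1, so it could not have called a difference under 0.05. With each cell of at least 2000 UMIs thinned to that number (2866 of 3277 tumour cells) the difference was -6.38 points (exact permutation p = 0.3). At a choosing sum of at least 25 the difference was -7.76 points (39.5% in KO and 47.2% in WT, exact permutation p = 0.1). The intermediate stage had the lowest share in both genotypes, with 1 library each.

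**Figure D4:**
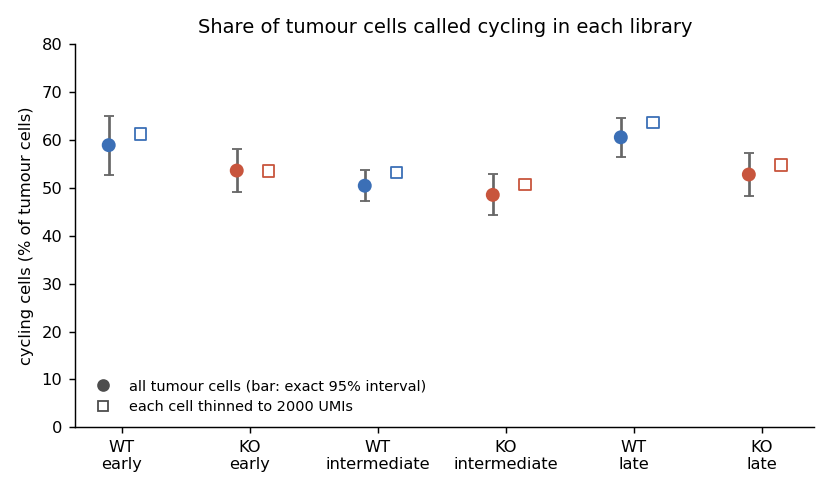
The vertical axis is the percentage of tumour cells called cycling in each of 6 libraries (horizontal axis), blue for WT and red for KO, with bars for the exact 95% binomial interval. Open squares give the share after thinning to 2000 UMIs, over the 2866 tumour cells of at least that depth. The shares lie between 48.5% and 60.5%, with WT above KO at each stage.

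The genotype of the host was compared in the cycling cells alone, with the stage as a block. Of 11944 genes tested, 0 were higher (0%) and 0 lower (0%) in KO at an edgeR adjusted p under 0.05, with 650 at an unadjusted p under 0.05, and DESeq2 called 22 higher and 2 lower. Leaving out KO early gave 65 genes past the threshold, leaving out KO intermediate 60, WT early 54, WT intermediate 17 and WT late 3, while leaving out KO late gave 0. The median log2 fold changes of the mitotic, replication and nucleotide lists lay between -0.19 and 0.01, against 0.0004 over all genes tested. Above 0 were 4 of 19 mitotic kinases and cyclins, 3 of 26 spindle genes and kinesins and 9 of 25 kinetochore genes. The same held for 6 of 15 anaphase, 1 of 15 condensin and cohesin, 21 of 41 replication and 9 of 20 nucleotide genes. Over all 11944 genes tested it held for 5982. The 37 MHC class I and interferon genes had a median of 0.83 and 32 were above 0, without any gene passing. Their summed level in cycling cells was 222, 122 and 84.1 in WT and 259, 221 and 274 in KO hosts from early to late, so that KO was above WT at 3 of 3 stages. The median of the list stayed between 0.47 and 1.24 when any library was left out. The 13 myeloid markers had summed levels of 11.4, 1.18 and 1.79 in cycling cells of WT hosts and 12.75, 9.91 and 13.5 in those of KO hosts. Here too KO was above WT at 3 of 3 stages. Of 12 myeloid markers tested 12 had a log2 fold change above 0 (median 1.55), without any gene passing. Their part in the interferon values was not tested. All 19 cholesterol synthesis genes tested were above 0 (median 0.61), with summed levels of 10.4, 10.4 and 9.70 in WT and 13.4, 14.95 and 18.3 in KO. Non-cycling tumour cells showed the same order at each stage, with 9.23, 10.99 and 11.49 in WT and 16.66, 14.34 and 17.24 in KO.

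The tumour stage was tested as a trend in cycling cells. Of 12509 genes tested with genotype as a covariate, 0 rose (0%) and 0 fell (0%) at an edgeR adjusted p under 0.05, with 874 at an unadjusted p under 0.05, and DESeq2 called 0 rising and 5 falling. Of the MHC class I and interferon genes, 4 of 37 had a positive trend (median log2 change per stage -0.40), and the summed levels above show this fall in WT hosts only, a difference that was not tested. The p-values of these 3 tests over libraries measure the spread between 6 mice with 1 mouse per condition.

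The difference between cycling and non-cycling cells was itself compared between hosts by an interaction term. Of 12613 genes tested, 0 had a larger log2 ratio (cycling over non-cycling) in KO (0%) and 3 a smaller one (0.0238%) at an edgeR adjusted p under 0.05, with 673 at an unadjusted p under 0.05, and DESeq2 called 3. Cxcl10, a chemokine induced by interferon (chromosome 5 of GRCm38, 92346638 to 92348889, minus strand, overlapping Art3 on the other strand), was at 4.24, 3.89, 4.29, 3.55, 0.566 and 4.88 in cycling cells. In non-cycling cells it was at 4.10, 7.44, 2.27, 6.83, 0.377 and 8.70. Cycling cells were thus higher than non-cycling cells in the 3 WT libraries and lower in the 3 KO libraries (interaction -1.43 ± 0.17 SE, edgeR adjusted p = 0.00189). The call was kept when any library was left out (adjusted p of 6.04e-06 to 0.0271). Ifit2, another interferon-induced gene (chromosome 19, 34550694 to 34576419, plus strand), was at 0.622, 0.322, 0.803, 0.420, 0.180 and 0.453 in cycling and at 0.267, 0.735, 0.650, 0.734, 0.168 and 1.47 in non-cycling cells (-1.69 ± 0.27 SE, edgeR adjusted p = 0.0431). It showed the same signs in the same libraries, but its call was lost without WT intermediate (edgeR adjusted p = 0.144) or KO late (edgeR adjusted p = 0.107).

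Sept4, a septin of the cytoskeleton (chromosome 11, 87568903 to 87590539, plus strand), was at 0.0726, 0.0997, 0.487, 0.0816, 1.34 and 0.0746 in cycling cells and at 0.232, 1.27, 0.811, 0.473, 0.921 and 0.379 in non-cycling cells. The interaction was -2.72 ± 0.42 (SE, edgeR adjusted p = 0.0362), and WT late was the library in which cycling cells were higher. The call was lost without KO early (edgeR adjusted p = 0.158), KO intermediate (0.0649) or WT late (0.0687), and also with the tenth of cells highest in other markers left out (0.294). Sept4 was also lower in cycling cells over all 6 libraries (-1.24 ± 0.37 SE, edgeR adjusted p = 0.0151, lost without KO early, at 0.0569, or KO intermediate, at 0.0518), and Cxcl10 (-0.29, adjusted p = 0.274) and Ifit2 (-0.46, adjusted p = 0.163) did not pass in that comparison.

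**Figure D5:**
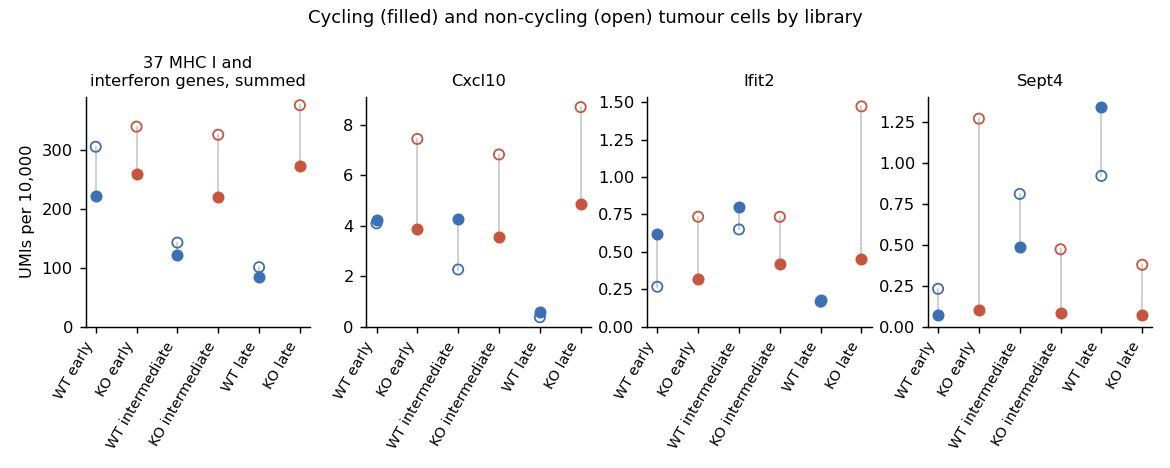
Each panel gives UMIs per 10000 (vertical axis) in cycling (filled) and non-cycling (open) tumour cells of 6 libraries (horizontal axis), blue for WT and red for KO, for the sum of 37 MHC class I and interferon genes and for Cxcl10, Ifit2 and Sept4. The summed genes were lower in cycling cells in 6 of 6 libraries, whereas Cxcl10 was lower in the 3 KO libraries only.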

How the data were processed

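Tumour cores of GL261-bearing mice and brains of naïve mice were profiled by Drop-seq in 8 libraries. The authors deposited, per library, a table of raw UMI counts per gene for 3000 barcodes. The submitters' processing notes name bcl2fastq 2.0, STAR (version not given in the sources used here) and the GRCm38/mm10 genome. Cells came through enzymatic dissociation and myelin removal, and doublets were not removed here. The 6 tumour tables held 6251385 to 9950713 UMIs each. Gene positions were taken from the annotation of GRCm38 and promoters from RefSeq.

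Cells and classes were chosen as the report describes. The gene lists and members were chosen with earlier results of these data known. UMIs were summed per library and class (12 sums, without the 17 genes of the rule), filtered by filterByExpr and scaled by TMM, and tested with edgeR 4.0.16 (quasi-likelihood F test, R 4.3.3), with p-values adjusted after Benjamini and Hochberg and called under 0.05. Fits used the library as a block (cycling against non-cycling), the stage as a block (KO against WT), the genotype as a covariate (stage trend) or a class by genotype term. Single values were tested by exact permutation (Python 3.11.15, scipy 1.17.1). The p-values measure the spread between libraries of 1 mouse each. Genes named were the 10 largest changes in each direction with at least 200 UMIs and the same sign in 6 libraries, the 3 most abundant members of each list, for other tests the 5 largest past the threshold with at least 200 UMIs, and 44 further genes chosen after their values were seen; some genes that the rule names are not reported here. The tests were tried on simulated data. The alternatives were DESeq2 1.42.0, no TMM, no filter, other thresholds, thinning to 2000 UMIs, cells left out by depth or other markers, and each library left out.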

Additional observations from a re-analysis of the deposited data

Results flagged for a closer look

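Of 51 groups of 6 libraries checked for a library standing apart, 5 held one, with the gap to the nearest library above 0.625 of the range, where chance gives about 5%. Mxd3 in non-cycling cells was at 0.01166 UMIs per 10000 in KO early, Pif1 at 0.01082 in KO late and Hist1h2an at 0.01782 in WT early, each from 1 UMI where the other 5 libraries had 0. Sept4 in cycling cells was at 1.342 in WT late, with a gap of 0.673 of the range. Cxcl10 in cycling cells was at 0.5657 in WT late, below the other 5 libraries by 0.691 of the range.

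The log2 ratio of cycling over non-cycling cells differed between KO and WT hosts for Sept4 (-2.718), Ifit2 (-1.687) and Cxcl10 (-1.433), by the interaction term of edgeR. Beyond the tumour cells, 246 of 1530 kept cells outside the tumour rule in the 6 tumour-bearing libraries reached the same sum of 15 over the 8 choosing genes (16.1%, exact 95% interval 14.3 to 18.0, and 11.1% to 22.3% per library). In the naïve libraries 12 of 926 cells reached it (1.30%, 0.671 to 2.25). Of the cells that met the tumour gene rule, 88 had been left out by their myeloid sum.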

How the results depend on the processing

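Beside the 1983 higher and 2087 lower genes, DESeq2 called 1360 and 1301 (1360 and 1300 shared). Thinning to 2000 UMIs gave 663 and 768 before the choice of cells (652 and 692 shared) and 786 and 894 after it (766 and 799 shared). With cells holding other markers left out 605 and 423 were called (571 and 330 shared, 2 in the opposite direction), with fewer libraries in the fit. Leaving out each library gave 1536 to 1852 higher and 1621 to 1998 lower genes. The log2 ratio of UMIs per cell turned to 0.4404 on means, to 0.6487 against cells at a choosing sum of 0, and to 0.007587 without WT late (-0.1781 to 0.007587 over libraries left out). The mitochondrial difference was 0.005353 points on means and -0.6884 at a sum of at least 25 (exact permutation p = 0.031). The ribosomal difference lay between -0.008402 (without WT early) and 0.3072 points with a library left out. The share of cycling cells averaged 43.33% at a sum of at least 25, 61.42% at 10, and 65.53% with cells from 5 to 15 left out. KO against WT gave 24 genes with DESeq2, 348 without the filter and 0 to 65 with a library left out, the stage trend 5, 262 and 0 to 1, and the interaction 135 without the filter, 6 with the tenth of cells highest in other markers left out, and 2 to 36 with a library left out. The interaction could not be fitted with all cells above 20 left out, since 2 libraries of WT hosts alone kept 20 cells per class.

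The cycling log2 fold changes that changed sign are given here, and their cause was not tested. The fit with cells holding other markers left out kept WT intermediate and WT late only. The cells left out and the libraries lost cannot be told apart in it. Of the genes listed for that fit, Ccnd1 (edgeR adjusted p = 0.00699) and Cxcl10 (edgeR adjusted p = 6.89e-07) passed. With cells holding other markers left out they were -0.3165 for Ccnd1, 0.4569 for Cd74, 0.961 for Cxcl10, 0.1474 for Hmgcs1, -0.05889 for Hsp90ab1, -0.1161 for Hsp90b1, 0.4273 for Ifit2, -0.03477 for Mif, 0.9591 for Sept4, 0.05172 for Sox2, 0.1105 for Ttr, 0.1905 for Tuba1a and 0.365 for Hist1h1c. With the tenth highest left out they were -0.01817 for Hsp90ab1, -0.04128 for Hsp90b1, -0.02308 for Mif, 0.2541 for Sept4 and 0.04889 for Tuba1a. Against cells at a sum of 0 they were 0.1798 for Hmgcs1, 0.06105 for Hspa5, -0.07891 for Gins3 and 0.04916 for Psme1. After thinning following the choice they were -0.0002302 for Anapc13, 0.02295 for Hmgcs1, -0.04984 for Hsp90b1, -0.02597 for Ly6c1 and 0.009506 for Nipbl, and after thinning before it -0.01992 for Anapc13, 0.1869 for Flt1, 0.1128 for Hmgcs1, -0.03442 for Hsp90b1, -0.03469 for Ly6c1, 0.04824 for Sox2 and 0.06327 for Nipbl. Without the 5% deepest cells they were -0.01609 for Hsp90b1 and 0.4851 for Ttr, with DESeq2 0.2016 for Ttr, and without the filter 0.01854 for Hspa5, 0.01785 for Nipbl and 0.0664 for Stag2. With 1 library left out, Flt1 lay between -0.3723 and 0.09629, Hmgcs1 between -0.1851 and 0.04891, Hsp90b1 between -0.03956 and 0.04296, Hspa5 between -0.1392 and 0.0001522, Ly6c1 between -0.05713 and 0.3546, Stag2 between -0.06587 and 0.02223, and Ttr between -2.523 (without KO late) and 0.3709 (without WT intermediate).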
